A study of Mus with 8 samples.

Results

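De novo lipogenesis, the building of fatty acids from acetyl-CoA, was followed through 10 named genes in the interscapular brown fat of mice, a depot that burns fuel for heat. The genes are 3 suppliers of cytosolic acetyl-CoA or acetoacetyl-CoA (Acly, Acss2, Aacs), the carboxylases Acaca and Acacb, the synthase Fasn, the NADPH-producing malic enzyme Me1, and the regulators Mlxipl, Srebf1 and Thrsp. They were chosen by name. A gene was read from a probe set annotated with that gene alone, and where there were several, from the one with the highest mean. Of the 10 genes, 9 had exactly 1 such probe set, among 30748 genes on the array. The probe set that carries the name Srebf1 is also annotated with the microRNA gene Mir6922, so 1 member, the transcription factor SREBP-1 that drives the lipogenic enzymes, is given no value.

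In this pathway citrate leaves the mitochondrion and is split by ATP citrate lyase to acetyl-CoA. Acetyl-CoA carboxylase turns acetyl-CoA into malonyl-CoA, and fatty acid synthase joins these units to palmitate at the cost of NADPH. The transcription factors SREBP-1, which answers to insulin, and ChREBP, which answers to carbohydrate and is encoded by Mlxipl, switch on most of these enzymes. Brown fat is known to run lipogenesis and fatty acid oxidation side by side, and cold is known to raise both there.

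There were 4 HILPDA KO mice and 4 wild type (WT) mice by their labels, 1 array each, all of C57BL/6 background and all called female. Hilpda encodes a small lipid droplet protein known to inhibit adipose triglyceride lipase. The sources used here do not give age, diet, housing temperature, the targeted allele or the cells in which it was deleted. Transcript levels are RMA values on the log2 scale, so a difference of 1 is a factor of 2 and differences are given as KO minus WT.

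Replicates 1 and 2 of both genotypes (set 1) and replicates 3 and 4 of both genotypes (set 2) differed as array sets that the labels do not mention. The median over all genes was 3.92 to 3.99 in set 1 and 4.92 to 4.96 in set 2, and the highest value was 19.93 on each array of set 1 and 19.68 to 19.77 in set 2. Both genotypes have 2 arrays in each set, so levels are compared within a set and the set is a block where the sets are combined. Hilpda read 4.45, 4.37, 5.60 and 5.51 in KO replicates 1 to 4, against 4.37, 4.28, 6.00 and 5.92 in WT replicates 1 to 4, so both KO values lay below both WT values in set 2 only. KO and WT therefore mean the labels of the arrays throughout. The X-inactivation transcript Xist read 3.49 to 4.10 over the 8 arrays and the Y-linked gene Uty 9.31 to 10.93, so all 8 go against their sex label. Ucp1, the uncoupling protein that defines brown adipocytes, lay within 0.1 of the highest value on all 8 arrays, so it shows the tissue but cannot be compared. Adipoq, the adipocyte hormone adiponectin, read 13.92 to 15.65.

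Among the suppliers of acetyl units, Acss2 was the member whose KO arrays lay below its WT arrays in both sets, while Acly and Aacs had differences of opposite sign in the 2 sets. Acss2 encodes the cytosolic acetyl-CoA synthetase that activates acetate. It read 7.48 and 7.46 in KO replicates 1 and 2, against 7.90 and 7.79 in WT replicates 1 and 2. In set 2 it read 8.81 and 9.12 in KO, against 9.27 and 9.85 in WT. The KO and WT values therefore did not overlap in either set, and the gap between groups was narrow in set 2. The difference was -0.37 (SE 0.20) in set 1 and -0.59 (SE 0.20) in set 2. Here and below, a within-set standard error or p-value rests on the spread of both sets, from 1 fit to all 8 arrays. With the set as a block it was -0.48 (SE 0.14), which is a KO over WT ratio of 0.715. This did not pass over all genes (limma unadjusted p = 0.00972, adjusted p = 0.983), and the difference stayed between -0.58 and -0.35 with any 1 array left out. The set 2 difference was -0.88 without WT replicate 3 and -0.30 without WT replicate 4. Of all genes, 2.46% had both KO below both WT in both sets, and Acss2 was 1 of the 9 members that did. The share was 3.24% among genes with a mean above the median of all genes, where all 9 members lie.

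Acly encodes ATP citrate lyase, which makes cytosolic acetyl-CoA from citrate. It read 9.92 and 10.10 in KO against 10.72 and 12.10 in WT in set 1, and 11.42 and 13.55 in KO against 11.17 and 12.19 in WT in set 2. The KO arrays were the 2 lowest of set 1, whereas in set 2 KO replicate 4 was the highest and KO replicate 3 lay between the WT arrays. The difference was -1.40 (SE 0.75, limma adjusted p = 0.772) in set 1 and 0.80 (SE 0.75, limma adjusted p = 0.696) in set 2. The set 1 difference was -2.09 without WT replicate 1 and -0.72 without WT replicate 2, and the set 2 difference was -0.27 without KO replicate 4. The 2 arrays of a genotype differed by up to 2.14 in this gene, so neither difference stands clear of the spread.

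Aacs encodes acetoacetyl-CoA synthetase, which activates the ketone body acetoacetate in the cytosol for lipid synthesis. It read 8.62 and 9.35 in KO against 9.15 and 9.48 in WT in set 1. In set 2 it read 11.39 and 11.60 in KO against 10.60 and 11.15 in WT. The groups overlapped in set 1, and both KO arrays were above both WT arrays in set 2. The differences were -0.33 (SE 0.28) and 0.62 (SE 0.28). Their contrast between the sets, 0.95 (SE 0.40), did not pass (limma adjusted p = 0.334), and the set 1 value was 0.04 without KO replicate 1.

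**Figure D1:**
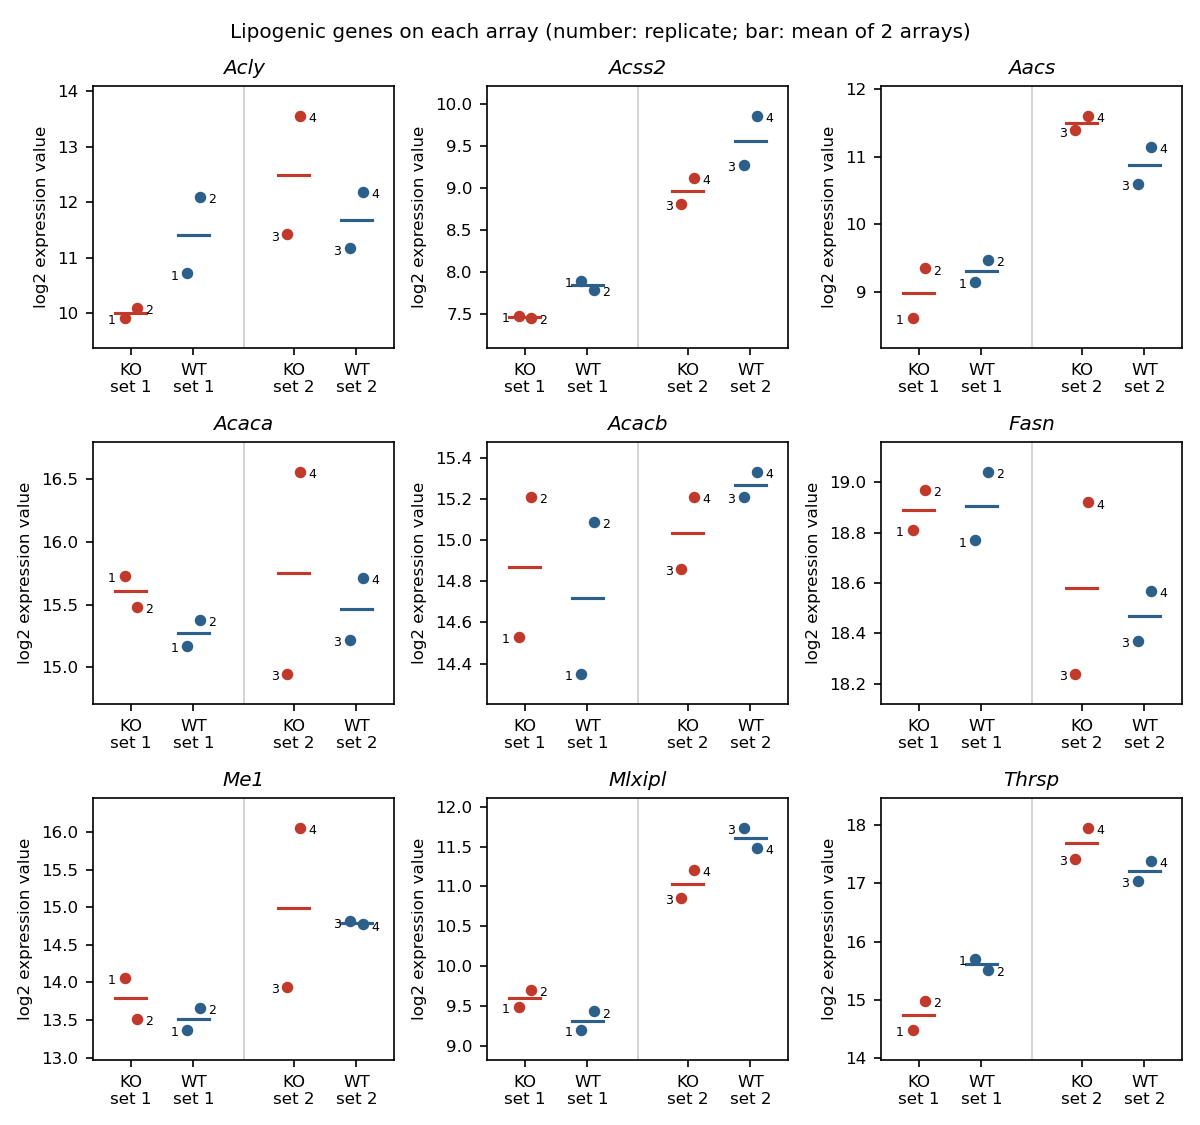
Log2 expression values of the 9 measured lipogenic genes on each array, KO left of WT within set 1 and within set 2, with the replicate number beside each point and bars at the mean of 2 arrays. Acss2 has KO below WT in both sets, Mlxipl and Thrsp part in opposite directions in the sets, and KO replicates 3 and 4 lie far apart for Acly, Acaca and Me1.

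The carboxylases and the synthase, which carry out the committed step and the chain building, did not separate the genotypes in both sets. Acaca encodes acetyl-CoA carboxylase 1, whose malonyl-CoA feeds fatty acid synthesis. It read 15.73 and 15.48 in KO against 15.17 and 15.38 in WT in set 1, and 14.95 and 16.55 in KO against 15.22 and 15.71 in WT in set 2. The KO arrays of set 1 were both above the WT arrays, and those of set 2 were the lowest and the highest of the 4. The differences were 0.33 (SE 0.47) and 0.28 (SE 0.47), and without KO replicate 4 the set 2 difference was -0.52.

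Acacb encodes acetyl-CoA carboxylase 2, whose malonyl-CoA restrains fatty acid entry into mitochondria. It read 14.53 and 15.21 in KO against 14.35 and 15.09 in WT in set 1, and 14.86 and 15.21 in KO against 15.21 and 15.33 in WT in set 2. The genotypes were interleaved in set 1, and in set 2 KO replicate 4 and WT replicate 3 had the same value at 2 decimals. The differences were 0.15 (SE 0.30) and -0.23 (SE 0.30).

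Fasn, the fatty acid synthase, read 18.81 and 18.97 in KO against 18.77 and 19.04 in WT in set 1, and 18.24 and 18.92 in KO against 18.37 and 18.57 in WT in set 2. The WT arrays enclosed the KO arrays in set 1, and the KO arrays enclosed the WT arrays in set 2. The difference with the set as a block was 0.05 (SE 0.15), the smallest standard error of the 9 members apart from Acss2. Fasn stayed at least 0.76 below the highest value of each array, so it was not at that ceiling.

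Me1, the cytosolic malic enzyme that yields NADPH for chain building, read 14.06 and 13.52 in KO against 13.37 and 13.66 in WT in set 1. In set 2 it read 13.94 and 16.05 in KO against 14.81 and 14.77 in WT. The WT arrays of set 2 agreed within 0.05, while the KO arrays lay 2.11 apart on either side of them. The differences were 0.27 (SE 0.60) and 0.21 (SE 0.60), and without KO replicate 4 the set 2 difference was -0.85. Both standard errors, also that of set 1, hold the distance between the KO arrays of set 2.

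The regulators Mlxipl and Thrsp had KO and WT values that did not overlap in either set, but in opposite directions. Mlxipl, which encodes the carbohydrate-sensing factor ChREBP, read 9.49 and 9.70 in KO against 9.20 and 9.43 in WT in set 1. In set 2 it read 10.86 and 11.21 in KO against 11.73 and 11.48 in WT. The KO arrays were thus the 2 highest of set 1 by a narrow margin and the 2 lowest of set 2. The difference was 0.28 (SE 0.17, limma adjusted p = 0.820) in set 1 and -0.57 (SE 0.17, limma adjusted p = 0.189) in set 2, and the contrast between the sets was -0.85 (SE 0.24, limma adjusted p = 0.162). The set 1 difference of Mlxipl was 0.16 without WT replicate 1.

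Thrsp encodes Spot 14, a nuclear protein induced by thyroid hormone and carbohydrate that promotes lipogenesis. It read 14.49 and 14.99 in KO against 15.70 and 15.52 in WT in set 1, and 17.42 and 17.94 in KO against 17.04 and 17.38 in WT in set 2. Both KO arrays were below both WT arrays in set 1 and above them in set 2, where KO replicate 3 and WT replicate 4 were close. The difference was -0.88 (SE 0.24, limma adjusted p = 0.419) in set 1, a ratio of 0.545, and 0.47 (SE 0.24, limma adjusted p = 0.415) in set 2, where it was 0.21 without KO replicate 4. The contrast between the sets was 1.34 (SE 0.34, limma adjusted p = 0.130), the smallest adjusted p of any member in any comparison. Of all genes, 12.7% parted in opposite directions in the sets, as did 19.2% of genes with a mean above the median. Mlxipl and Thrsp were the 2 of the 9 members that did, a count near the second share.

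**Figure D2:**
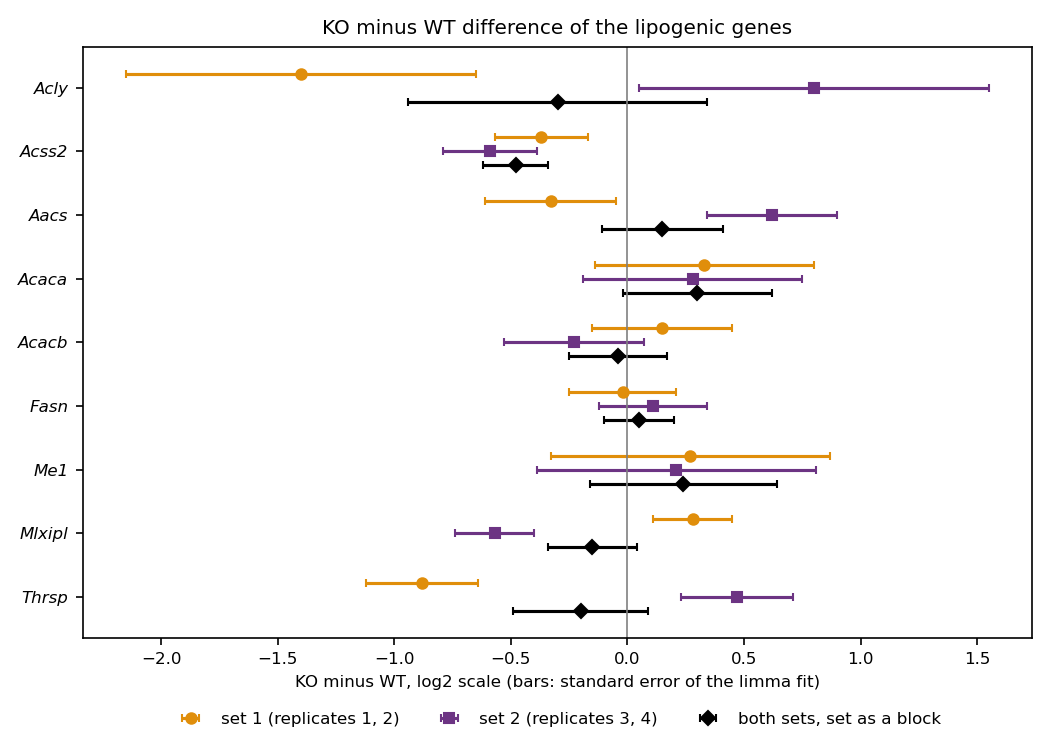
KO minus WT difference of each lipogenic gene on the log2 scale within set 1, within set 2 and with the set as a block, with bars for the standard error of the limma fit. The bars of each set rest on the spread of both sets. Acss2 lies below 0 in all 3 estimates, and Acly, Aacs, Mlxipl and Thrsp lie on opposite sides of 0 in the sets, as do Acacb and Fasn with bars that cross 0.

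Over the 9 members, 4 differences were above 0 with the set as a block, where 52.6% of all genes were. Within set 1, 4 were above 0, where 51.0% of all genes were, and 6 in set 2, where 53.6% were. The median difference was -0.04 with the set as a block, -0.02 within set 1 and 0.21 within set 2, and over all genes it was 0.0075, 0.0037 and 0.017 in the same 3 fits. Over genes with a mean above the median it was -0.014, -0.056 and 0.04. The set 2 median was -0.40 without KO replicate 4 and 0.72 without KO replicate 3. In set 1 both KO arrays were above both WT arrays for 2 members (18.9% of all genes) and below for 3 (19.4%). In set 2 the counts were 2 above (23.9%) and 3 below (19.1%), and Acacb was one of the 3 by less than its printed decimals. All 9 members lie among the genes with a mean above the median. There the shares were 13.4% above and 29.0% below in set 1, and 30.3% and 21.7% in set 2. The counts of both sets rested on single arrays. In set 2 without KO replicate 4, 2 members lay above 0 (53.5% of all genes) and 6 had the remaining KO array below both WT arrays (32.6% of all genes). Without KO replicate 3, 6 lay above 0 (51.7% of all genes) and all 6 were above both WT arrays (38.6% of all genes). In set 1 the number above 0 was 6 without KO replicate 1 (47.2% of all genes), 3 without KO replicate 2 (52.4%) and 3 without WT replicate 1 (51.3%). Without WT replicate 1, 5 members had both KO arrays below the remaining WT array (35.0% of all genes). Without WT replicate 2, 5 members lay above 0 (50.6%) and 5 had both KO arrays above the remaining WT array (34.2%).

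No member passed in any of the 4 comparisons. With the set as a block, limma called 0.0% of all genes, and 4.82% at an unadjusted p under 0.05, where 1 member (Acss2) stood. Within set 1 it called 0.0% and 7.73% unadjusted, with 1 member (Thrsp) among the second. Within set 2 it called 0.00325%, which is 1 gene, and 15.1% unadjusted, with 2 members (Mlxipl and Acss2). The contrast between the sets was called for 0.494% and 14.9% unadjusted, with 3 members (Thrsp, Mlxipl and Aacs) among the second. The replicates come from separate mice per the design text, and 2 arrays per genotype and set limit what these tests can show.

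Within set 2, KO replicate 3 was the lowest and KO replicate 4 the highest of the 4 arrays together for 3 of 9 members (Acaca, Fasn and Me1), as they were for 7.05% of all genes. KO replicate 4 was the highest of the 4 arrays for 6 of 9 members (Acly, Acaca, Fasn, Me1, Thrsp and Aacs), where it was the highest for 26.3% of all genes. KO replicate 3 was the lowest for 6 of 9 (Acaca, Acacb, Fasn, Me1, Mlxipl and Acss2), where it was the lowest for 21.6% of all genes. Among genes with a mean above the median these shares were 4.66%, 24.1% and 16.2%, in the same order. The counts were made after the values had been seen. The distance between the 2 KO arrays of set 2 had a median of 0.52 over the members, against 0.34 between the WT arrays. Over all genes the distances were 0.17 in KO and 0.15 in WT, and over genes with a mean above the median 0.2 and 0.15. In set 1 the median distance over the members was 0.24 in KO and 0.27 in WT.

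**Figure D3:**
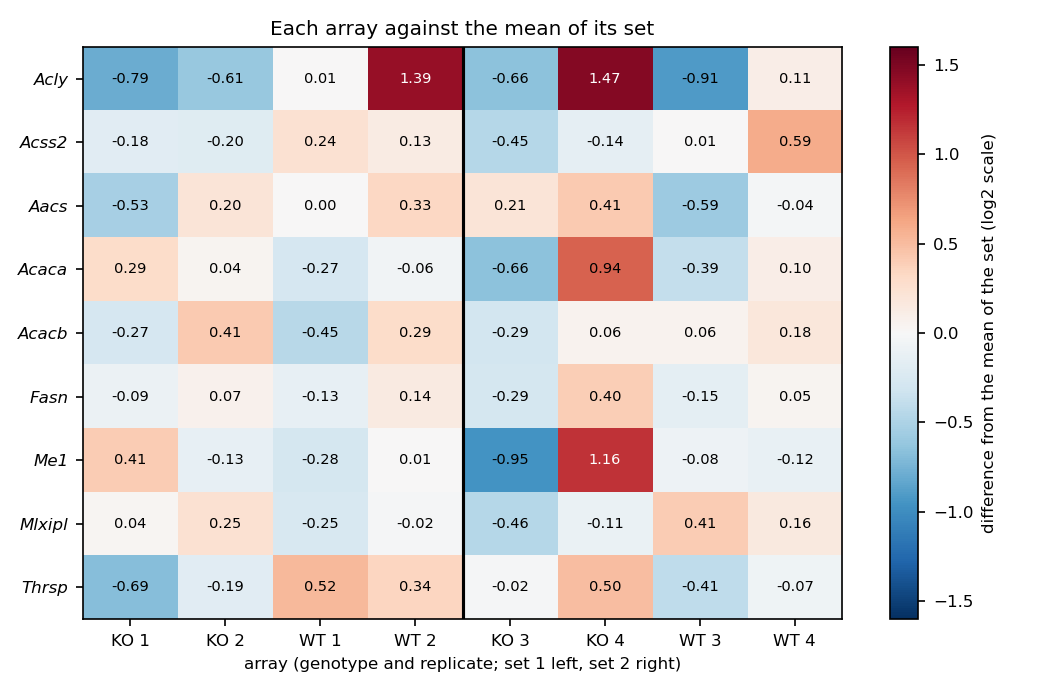
Difference of each array from the mean of its set for the 9 lipogenic genes, on the log2 scale, with set 1 left and set 2 right and KO left of WT in each. KO replicate 4 is highest of its set in 6 rows and KO replicate 3 lowest in 6, and Acly spans -0.91 to 1.47 in set 2.

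Transcripts of other tissues differed between the arrays that these comparisons rest on. The 18 liver markers averaged 11.72 and 8.88 in KO replicates 1 and 2, against 8.62 and 7.0 in WT replicates 1 and 2. Of the 18, 16 were higher in KO of set 1. In set 2 they averaged 5.74 to 5.95, with 13 higher and 5 lower in KO. The marker counts here stand beside 51.0% of all genes above 0 within set 1 and 53.6% within set 2. Albumin (Alb) read 19.23 and 15.81 in KO and 14.51 and 10.03 in WT of set 1, and 4.79 to 5.23 in set 2. The list mean of set 2 lay above the Alb values of set 2, so other markers of the list read higher than Alb there. The list may therefore not be of liver alone. Liver is itself a lipogenic tissue, so these values stand beside the set 1 differences of the enzymes and of Thrsp and Mlxipl. The 18 skeletal muscle markers averaged 5.94 and 10.56 in KO replicates 3 and 4, against 10.97 and 9.28 in WT replicates 3 and 4. All 18 were lower in the KO mean of set 2. The list mean of KO replicate 3 lay below both WT arrays there, and that of KO replicate 4 lay between them. In set 1 the muscle markers averaged 6.47 and 9.20 in KO against 8.25 and 7.73 in WT, with 4 higher and 14 lower in KO. The 10 markers of all adipocytes averaged 16.96 and 16.61 in KO and 17.21 and 17.16 in WT of set 2, with 9 of 10 lower in KO. In set 1 they averaged 16.16 and 16.35 in KO and 16.42 and 16.35 in WT, with 5 higher and 5 lower in KO. The 12 brown adipocyte markers averaged 12.01 and 12.06 in KO and 12.48 and 12.65 in WT of set 1 (difference -0.53, with 5 higher and 7 lower in KO). In set 2 they averaged 13.84 and 13.48 in KO and 13.30 and 13.54 in WT (difference 0.24, with 6 higher and 6 lower in KO). Ucp1, which could not be compared, is among these 12 markers. A value above 0 on this scale does not show that a marker is expressed, as the median over all genes was 3.92 to 3.99 in set 1 and 4.92 to 4.96 in set 2. The part of other tissues or of adipocyte markers in the lipogenic values was not tested. In whole tissue, fewer cells of a type and less RNA per cell cannot be told apart.

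**Figure D4:**
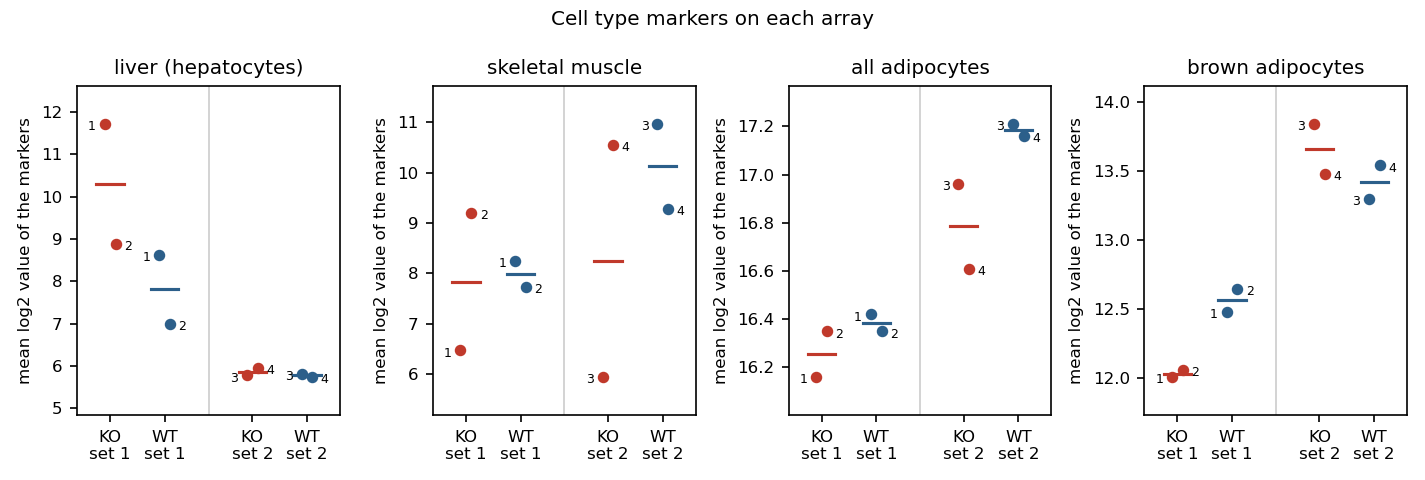
Mean log2 value of the markers of liver, skeletal muscle, all adipocytes and brown adipocytes on each array, KO left of WT within each set, with the replicate number beside each point. Liver markers range from 7.0 to 11.72 in set 1 and from 5.74 to 5.95 in set 2, and KO replicate 3 has the lowest muscle mean, 5.94.

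The genes around the pathway were read from 8 lists, of whose 90 genes 78 were measured. None passed with the set as a block or within a set, and 2 passed the contrast between the sets. The counts of each list below stand beside these shares of all genes above 0: 52.6% with the set as a block, 51.0% within set 1 and 53.6% within set 2. The list of partners and regulators of SREBP-1 and ChREBP had 12 of 14 measured genes below 0 with the set as a block (median -0.10) and 11 of 14 within set 2 (median -0.18), against 7 of 14 within set 1 (median 0.03). Insig1, the membrane protein that holds SREBP precursors in the endoplasmic reticulum and is itself an SREBP target, read 13.21 and 14.08 in KO against 11.28 and 10.43 in WT in set 1. In set 2 it read 12.21 and 11.31 in KO against 14.71 and 14.83 in WT. The KO arrays were well above WT in set 1 and well below it in set 2, with differences of 2.79 (SE 0.42) and -3.01 (SE 0.42). The contrast between the sets, -5.81 (SE 0.59), passed (limma adjusted p = 0.0367), but the adjusted p was 0.0596 to 0.158 with any 1 array left out. Srebf2, the factor of cholesterol synthesis genes, differed by -0.20 (SE 0.09) and Mlx, the partner of ChREBP, by -0.29 (SE 0.14) with the set as a block.

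AMPK phosphorylates and inhibits both carboxylases. In the list of AMPK subunits and malonyl-CoA control, 7 of 9 were below 0 with the set as a block (median -0.03). Within set 1, 5 of 9 were below 0 (median -0.08), and within set 2, 4 of 9 (median 0.05). Prkag1, a regulatory gamma subunit, read 11.48 and 11.72 in KO against 12.25 and 12.54 in WT in set 1, and 13.60 and 13.74 in KO against 12.91 and 12.96 in WT in set 2. Its KO arrays lay below WT in set 1 and above it in set 2, and the contrast between the sets, 1.53 (SE 0.20), passed (limma adjusted p = 0.0455). With any 1 array left out the adjusted p was 0.0664 to 0.159. Prkaa1, a catalytic subunit, differed by -0.23 (SE 0.11) with the set as a block, and Trib3, a pseudokinase, by 0.20 (SE 0.12).

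Upstream of acetyl-CoA, 7 of 11 genes of acetyl-CoA and citrate supply were above 0 with the set as a block (median 0.01). Pdhb, a pyruvate dehydrogenase subunit, stood at 0.21 (SE 0.15) and Cs, citrate synthase, at -0.10 (SE 0.09). Cs read 19.78 to 19.82 in set 1, close to the highest value of 19.93 there, so its difference is less certain. With the set as a block, all 6 measured NADPH genes were below 0 (median -0.11). Among them were Rpia at -0.13 (SE 0.11) and Rpe at -0.09 (SE 0.09), both of the pentose phosphate pathway. Within set 1, 3 of the 6 NADPH genes were below 0, and within set 2, 5 of 6. Downstream, 5 of 9 genes that use palmitate were above 0 with the set as a block (median 0.02). Elovl6, which lengthens palmitate, stood at 0.24 (SE 0.13) and Elovl1 at -0.10 (SE 0.09). The stearoyl-CoA desaturase Scd1 lay within 0.1 of the highest value on all 8 arrays and could not be compared. It is nonetheless among the 9 genes counted, below 0.

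Of 8 insulin signalling genes, 7 were below 0 with the set as a block (median -0.13), with the kinases Akt1 at -0.18 (SE 0.07) and Mtor at -0.22 (SE 0.10). The exception was Irs2, an adaptor of the insulin receptor, singled out after its values had been seen. It read 9.70, 9.19, 14.76 and 14.09 in KO replicates 1 to 4, against 10.67, 9.96, 9.04 and 11.02 in WT replicates 1 to 4. Both KO arrays were below WT in set 1 and above it in set 2. The set 2 difference of 4.40 (SE 0.62) did not pass (limma adjusted p = 0.0799). Irs1 of the same list also changed sign, at -1.88 in set 1 and 1.37 in set 2. Within set 1, 5 of the 8 insulin signalling genes were below 0, and within set 2, 6 of 8. Of the 5 other acetate and ketone body enzymes, Oxct1, which uses acetoacetate in mitochondria, differed by -0.29 (SE 0.25) and Bdh1 by 0.15 (SE 0.08) with the set as a block. Oxct1 differed by -0.91 in set 1 and 0.34 in set 2, and its contrast between the sets, 1.24 (SE 0.21), did not pass (limma adjusted p = 0.0647).

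Cholesterol synthesis shares acetyl-CoA and SREBP factors with lipogenesis, and Acss2 and Aacs feed both. All 16 measured genes of that list were below 0 with the set as a block (median -0.31), where 52.6% of all genes were above 0. Within set 2, 13 of 16 were below 0 (median -0.65) and 11 had both KO below both WT (19.1% of all genes). Within set 1, 10 of 16 were below 0 (median -0.07) and 5 had both KO below both WT (19.4% of all genes). Among genes with a mean above the median these shares were 21.7% in set 2 and 29.0% in set 1, and the median differences 0.04 and -0.056. The set 1 values of the list were near these. Idi1 differed by -0.70 (SE 0.23) and Sc5d by -0.47 (SE 0.16) with the set as a block, and Hmgcs1, the cytosolic HMG-CoA synthase, by 1.15 in set 1 and -2.31 in set 2. Of the 9 lipogenic members, Acss2, Mlxipl and Acacb were below 0 in set 2 and the 6 others above. Whether the lists differ from each other was not tested.

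**Figure D5:**
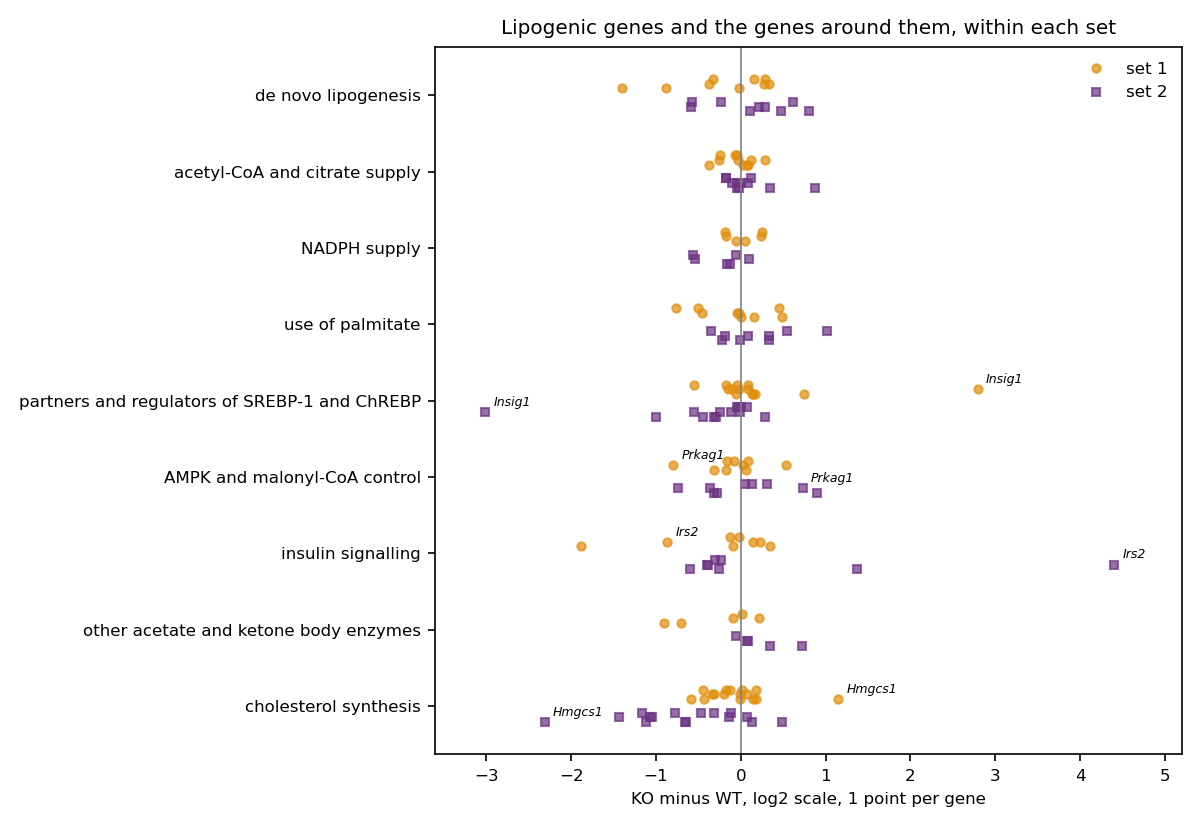
KO minus WT difference on the log2 scale, 1 point per gene, for the 9 lipogenic genes and 8 lists of genes around them, within set 1 (circles) and set 2 (squares). Insig1 stands at 2.79 and -3.01 and Irs2 at -0.87 and 4.40, while most genes lie near 0.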

How the data were processed

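Total RNA of brown adipose tissue from 8 mice was hybridized to 1 Affymetrix array each. The deposited values are log2 expression values that the authors made by RMA with core-exon analysis in Affymetrix Expression Console, per the labels, and the base was read from the values. The sources used here name no version or genome build, and no scanner files were used. Of 72688 probe sets, 31221 carried 1 gene and 1529 several, where an old and a new name of a gene counted once through RefSeq (GRCm38.p6). For the 364 genes with more than 1 probe set, the one with the highest mean was kept.

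Limma 3.58.1 in R 4.3.3 fitted set plus genotype, and 1 mean per set and genotype for the within-set differences and their contrast, over 30748 genes with Benjamini-Hochberg adjustment at 0.05, and was tested on simulated data. The within-set standard errors and p-values use a single spread per gene, estimated from the arrays of both sets. Groups come from the sample titles. The members, lists, markers, sets and tests were chosen with earlier results of these data known. Named genes were all members, the 2 genes of each list with the smallest unadjusted p with the set as a block, and defining markers. Those that passed the contrast between the sets, Irs1, Irs2, Hmgcs1, Scd1 and the sex-linked genes were named after their values were seen. No sequences are shown. The number of arrays limits the precision.

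The genotypes share replicate numbers. Same-numbered arrays correlated at 0.701, 0.473, 0.478 and 0.61 in their deviations from the group means. The highest correlation of the same KO arrays with a WT array of another number was 0.517, 0.615, 0.628 and 0.531. With the set difference removed these were 0.107, 0.107, -0.0886 and -0.0886, so no pairing by number was assumed.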

Additional observations from a re-analysis of the deposited data

Results flagged for a closer look

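Insig1 and Prkag1 had KO minus WT differences that were unequal in the 2 sets by the test of that contrast, with values of -5.81 and 1.53 (limma adjusted p = 0.0367 and 0.0455). The sets are array sets and not conditions named by the labels. Pdhb read 18.74 in KO replicate 4, far from the 3 other KO arrays (17.97 to 18.05). This was 1 of 74 groups of 4 arrays examined for such a gap. Chance gives about 1 in 20 for 4 values of 1 normal distribution. Each group here spans both array sets, so that rate need not hold and the count is not set against it.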

How the results depend on the processing

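With the set as a block, limma called 0 genes (1481 at an unadjusted p under 0.05), and also 0 under each of the 8 alternatives that leave out no array, among them ordinary least squares (1382 unadjusted), no block (38 unadjusted) and the replicate number as a block (1234 unadjusted). With 1 array left out the count was 0 to 1. Within set 1 it was 0, and 0 to 14 with 1 array left out. Within set 2 the count of 1 became 0 with the replicate block, with ordinary least squares and after quantile normalization within each set, and 14 among genes above the median level. It was 0 to 10 with 1 array left out. The contrast between the sets was called for 152 genes. The count was 3 with the replicate block, 4 with trend and robust eBayes and 0 with ordinary least squares. It was 82 after median centring and 379 among the 15374 genes above the median level. It was 0 to 10 with 1 array left out. What moved these counts was not tested. The fit without a block does not apply within a set.

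No member passed under any alternative run. The direction of a member turned once among the alternatives that keep all arrays, for Me1 in set 2 after quantile normalization (-0.069 in place of 0.21). With 1 array left out, differences with the set as a block ranged from -0.95 to 0.20 for Acly, -0.011 to 0.63 for Acaca, -0.23 to 0.069 for Acacb, -0.10 to 0.17 for Fasn, -0.18 to 0.67 for Me1, -0.28 to 0.0071 for Mlxipl, -0.44 to 0.031 for Thrsp and -0.058 to 0.39 for Aacs, and the members' median from -0.13 to 0.11. Within set 1 they ranged from -0.22 to 0.52 for Acacb, -0.15 to 0.12 for Fasn and -0.69 to 0.037 for Aacs. Within set 2 they ranged from -0.27 to 1.87 for Acly, -0.52 to 1.08 for Acaca, -0.23 to 0.45 for Fasn and -0.85 to 1.26 for Me1. The contrast between the sets ranged from -0.85 to 0.75 for Acaca, -0.21 to 0.47 for Fasn, -1.12 to 0.99 for Me1 and -0.51 to 0.070 for Acss2. The contrast of Insig1 lost its call with the replicate block, trend and robust eBayes and ordinary least squares (adjusted p = 0.0805, 0.0524 and 0.196), and that of Prkag1 also after quantile normalization and median centring.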
